A study of Mus musculus with 6 samples.

Results

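Immature neutrophils loaded with secondary-granule transcripts were examined in single-cell RNA-seq libraries of the mouse fracture callus, the repair tissue that bridges a broken bone. A barcode was chosen by its own counts of unique molecular identifiers (UMIs, each standing for 1 captured RNA molecule). The limits were 500 or more UMIs, 200 or more genes, mitochondrial transcripts at 10% of UMIs or less, at least 10 UMIs of Ltf, Camp and Ngp together and at least 10 UMIs of S100a8 and S100a9 together, with fewer than 5 UMIs of Elane, Prtn3 and Mpo and fewer than 3 of C1qa, C1qb and C1qc. Of 46944 barcodes in the 6 libraries, 42167 passed the limits on UMIs, genes and mitochondrial share, and 1588 of these were members. The 11 genes of the rule therefore describe the selection and are not results.

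The 6 libraries came from calluses of 12-week-old mice with a femoral fracture, taken at 14 days post-fracture. The labels do not say how many animals gave a library, and the paper's animal numbers for this experiment differ between its methods and its results, so the p-values below measure the spread between libraries. The 3 control libraries carry the genotype label wt and are described in the paper as Piezo1 f/f. The 3 knockout libraries carry the label Col2CreERT; Piezo3-/- on the samples and Piezo1-/- in the series design, and are Col2a1CreERT2; Piezo1 f/f in the paper, where both groups received tamoxifen at 75 mg per kg on 5 consecutive days from day 5. Cre is driven by Col2a1, a cartilage collagen promoter, so the deletion was aimed at chondrocytes and not at neutrophils. The animals are stated to be male, but the third knockout library held Xist at 224 CPM (the UMIs of a gene divided by all UMIs of its library and population, times 1000000) in the members that passed the added filter described below and 0 CPM of Ddx3y, Eif2s3y, Kdm5d and Uty, whereas Xist lay between 0 and 0.828 in the other libraries. That library goes against the stated sex. Shares between genotypes are given without it where that was computed, and counts of called genes only where the knockout libraries that remained gave a spread.

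Neutrophils mature in the bone marrow and pack their granules in sequence. Primary granules with Elane, Prtn3 and Mpo are filled at the promyelocyte stage, secondary granules with lactoferrin (Ltf), cathelicidin (Camp) and neutrophilic granule protein (Ngp) in myelocytes and metamyelocytes, and gelatinase granules with Mmp9 in band cells, after which the mature cell arms its receptors and cytokine genes. The transcription factor C/EBP epsilon (Cebpe) is required for the secondary-granule step, and loss of it leaves cells that lack these proteins. Cells caught at the secondary-granule step are normally held in the marrow and leave it when demand is high.

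The 3 transcripts that define the population lie on chromosome 9 of GRCm38, with Camp at chr9:109847379-109849617 on the minus strand, Ngp at chr9:110419747-110423012 on the plus strand and Ltf at chr9:111019271-111042767 on the plus strand, whereas Lcn2, the highest secondary-granule transcript outside the rule, lies on chromosome 2 at chr2:32384633-32388252 on the minus strand. Promoters are shown because the members carry these transcripts together. RefSeq promoters (GRCm38.p6) were matched for 10 of 12 secondary-granule genes, and the 250 bases before the start were searched on both strands for TTGCNNAA, a C/EBP-type pattern. Matches are in capitals below, and 9.56% of 32851 promoters of the same length held at least 1. The RefSeq start lies downstream of the GENCODE gene start in all 4 genes, so the end of each window nearest the start ran into an annotated 5′ UTR, by 21 bases in Ltf, 61 in Ngp, 58 in Lcn2 and 161 in Camp, and these bases are not printed. The stretches shown are chr9:111019042-111019270 for Ltf, chr9:110419558-110419746 for Ngp, chr2:32387798-32387989 for Lcn2 (where it overlaps a coding exon of a longer GENCODE transcript of Lcn2) and chr9:109849618-109849706 for Camp, each read 5′ to 3′ on the strand of its gene.
Ltf: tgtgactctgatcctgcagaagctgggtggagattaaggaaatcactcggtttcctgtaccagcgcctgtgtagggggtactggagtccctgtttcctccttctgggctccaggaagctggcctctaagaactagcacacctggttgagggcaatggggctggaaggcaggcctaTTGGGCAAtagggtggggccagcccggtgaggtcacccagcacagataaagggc
Ngp: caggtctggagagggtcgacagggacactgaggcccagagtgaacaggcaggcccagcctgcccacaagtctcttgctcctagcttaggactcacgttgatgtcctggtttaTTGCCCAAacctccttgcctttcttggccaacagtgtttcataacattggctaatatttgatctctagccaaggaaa
Lcn2: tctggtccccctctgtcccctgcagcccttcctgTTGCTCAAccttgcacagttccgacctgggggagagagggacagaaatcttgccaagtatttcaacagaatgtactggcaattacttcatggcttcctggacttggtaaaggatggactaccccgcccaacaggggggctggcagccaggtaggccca
Camp: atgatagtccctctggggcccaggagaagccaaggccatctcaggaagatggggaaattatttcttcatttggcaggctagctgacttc

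Counted from the RefSeq start, the pattern began at base -75 in Ltf, at -138 and -11 in Ngp and at -216 in Lcn2, and the match at -11 lay in the bases not printed. Camp held no match in its 250 bases. Among the 10 matched secondary-granule genes, 4 held a match (Ltf, Ngp, Lcn2 and Ptx3), and among 17 matched inflammatory genes 2 did. A match is a run of letters and was not shown to be a bound site.

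Members were found in every library, but in very unequal numbers. The control libraries held 15, 540 and 222, and the knockout libraries 6, 397 and 408. Their median depth was 5468 UMIs and 1444.5 genes per barcode. No member barcode occurred in more than 1 library, while 185 of 41982 distinct barcodes past the filters did. The first control and first knockout libraries, whose file headers name Cell Ranger 6.1.1 where the others name 6.1.2, were the poorest in members, and comparisons of expression in members left out the first knockout library, which fell under a minimum of 10 members. Levels and tests in the other populations used it where they held at least 10 barcodes. Summed over members, the 5 libraries compared held 220225, 4122486 and 1450901 UMIs in the controls and 2897036 and 2814693 in the knockouts, so the first control library measures each gene least precisely.

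All 6 markers listed for the population were present in the members of every library, though the levels of Ltf, Camp and Ngp were set in part by the rule. Camp stood at 13196, 32751 and 33703 CPM in the control members and at 4378, 29162 and 19358 in the knockout members, lowest in the 6 barcodes of the first knockout library. Together Ltf, Camp and Ngp took a median of 5.67% of a member's UMIs, and S100a8 with S100a9, the calprotectin subunits, took 31.3%. In barcodes rich in collagen UMIs and under the S100a8 and S100a9 limit, which should lack granule transcripts, between 1.42% and 11.4% held a Ltf, Camp or Ngp UMI after thinning every barcode to 500 UMIs, against 93.3% to 100% of members, whose share the rule itself fixed. Median depths before thinning ran from 1204 to 11993 UMIs in the collagen-rich barcodes and from 4619 to 16631 in the members. Of the collagen-rich barcodes of a library at most 0.269% held 10 or more such UMIs, a value that covers only barcodes with few S100a8 and S100a9 UMIs.

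The rule sets the members against barcodes with the same S100a8 and S100a9 limit and fewer than 5 UMIs of Ltf, Camp and Ngp, and most of those barcodes held few S100a8 and S100a9 UMIs for their depth. Of these 7436 barcodes, 61.5% had under 1% of their UMIs from S100a8 and S100a9, compared with 2.08% of members. Where that share was under 0.1%, 3285 barcodes had a median of 20758 UMIs, Col1a1 at 19117 CPM and Csf3r, the G-CSF receptor of neutrophils, at 2.18. Where it was 20% or more, 618 barcodes held Csf3r at 840 and Retnlg at 32430 CPM. Neutrophils were therefore compared with neutrophils by a further filter, chosen after these values were seen: S100a8 and S100a9 at 1% or more of UMIs and collagen transcripts at 5% or less, in both populations. It left 1513 members and 2792 other neutrophils, and values below are from these unless stated.

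**Figure D1:**
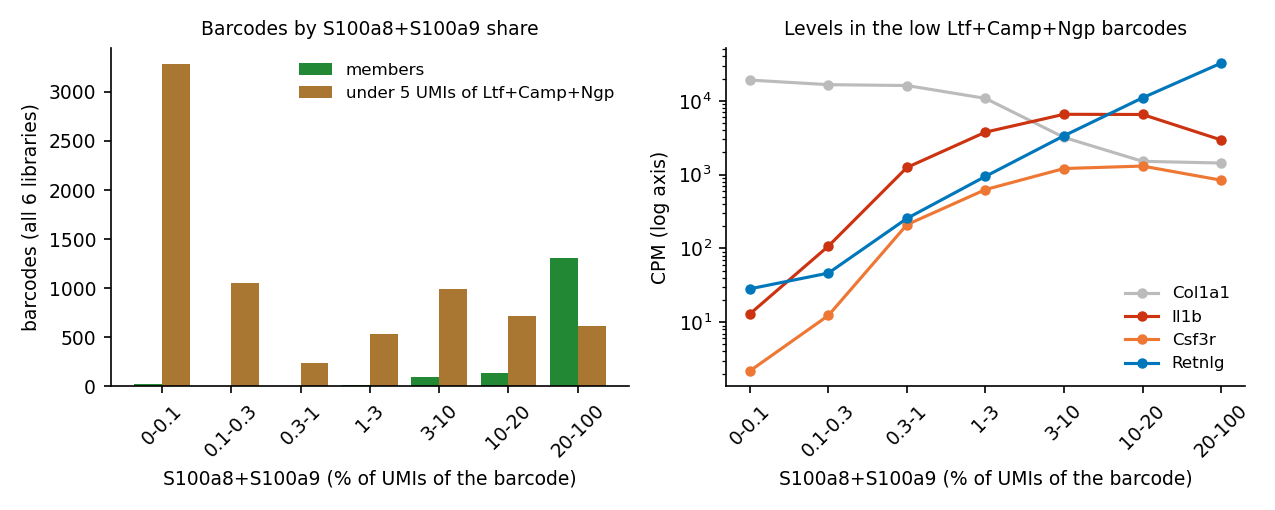
Left, barcodes in each range of S100a8 plus S100a9 share (% of the UMIs of a barcode) for members and for barcodes with under 5 UMIs of Ltf, Camp and Ngp, over all 6 libraries. Right, CPM (log axis) of 4 genes in the low Ltf, Camp and Ngp barcodes by the same ranges: Col1a1 is highest and Csf3r lowest at the left end, where 3285 barcodes lie, and Retnlg reaches 32430 at the right end.

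Against other neutrophils, members held more of Lcn2, Chil3, Cd177 and Itgb2l among the remaining secondary-granule genes, of the early genes Cebpe, Fcnb and Serpinb1a, and of 4 G2 and M phase genes, 3 chromatin genes and the microtubule regulator Stmn1, and less of 16 of 20 inflammatory genes and 10 of 19 receptor genes. The members were chosen by counts from the same cells, so these values are a description with no test. A gene was counted as higher or lower where its mean log2 ratio over 5 libraries was beyond 1 with the same sign in all 5 and its mean level at least 50 CPM (5 were added to each value before the ratio). Of 2603 genes at that level outside the rule, 86 (3.30%) were higher and 438 (16.8%) lower in members, and nothing is read from these shares. Against the comparator of the rule as given, 205 of 2912 (7.04%) were higher and 718 (24.7%) lower. The genes of the rule took a large part of the members' UMIs, and with those genes left out of the totals the split became 214 higher and 273 lower (without knockout 3 and with all genes in the totals, 106 and 507) and the median log2 ratio over all genes moved from -0.36 to 0.05.

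**Figure D2:**
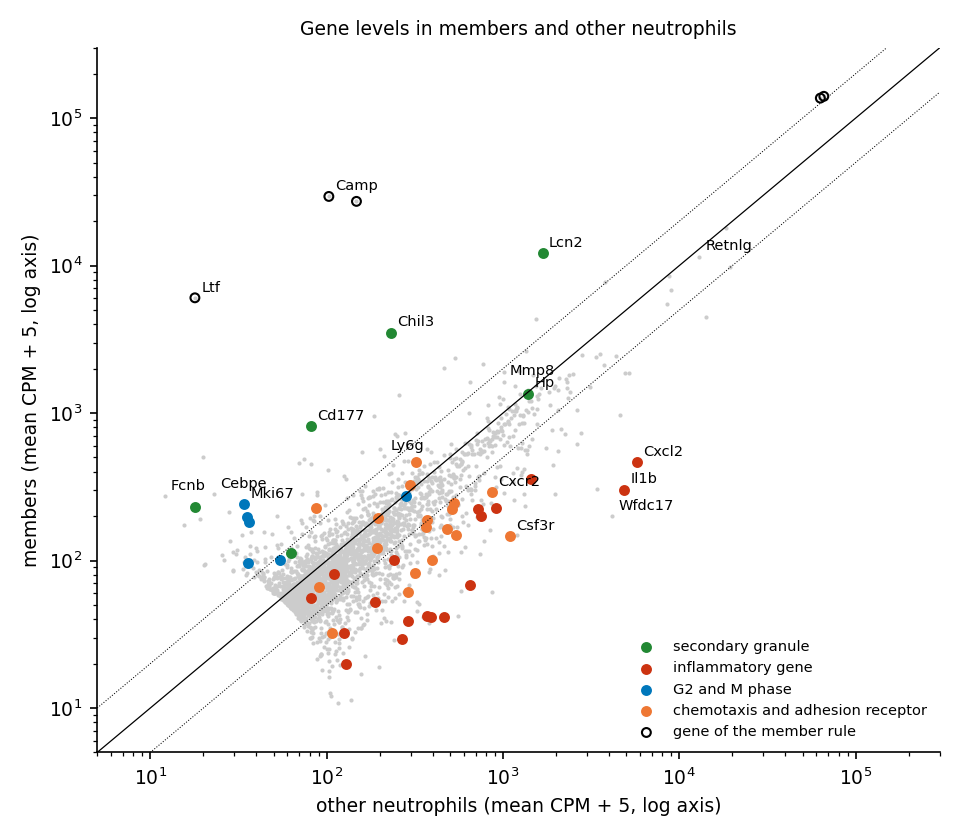
Mean CPM plus 5 in members (vertical, log axis) against other neutrophils (horizontal, log axis) over 5 libraries, 1 point per gene at 50 CPM or more. The solid line marks equal levels and dotted lines 2-fold differences. Lcn2, Chil3 and Cd177 lie far above the lines, Il1b, Cxcl2 and Csf3r far below, and Retnlg between them.

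Of the 9 secondary-granule genes outside the rule, 6 reached the level, 4 of these were higher in members, none was lower, and the median log2 ratio was 3.09 beside -0.36 over all genes. Lcn2, the iron-scavenging lipocalin NGAL, stood at 10792, 15610 and 11720 CPM in the members of the 3 controls and at 11584 and 10835 in those of knockout 2 and knockout 3. In other neutrophils of the same libraries Lcn2 stood at 1186, 1551, 1754, 2274 and 1630. The 2 populations did not overlap, and the log2 ratio was 2.86 ± 0.39 (SD, n = 5 libraries).

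Chil3, the chitinase-like protein Ym1, held 1672, 4998 and 4023 CPM in control members and 3844 and 2990 in knockout members. In other neutrophils it held 0, 184, 753, 162 and 34.8 in the same order of libraries. Every library was higher in members, by a log2 ratio of 5.26 ± 2.22 (SD, n = 5), a mean that leans on the 0 among 22 other neutrophils of the first control library. Cd177, a surface protein that presents proteinase 3, reached 813 ± 221 against 76.6 ± 21.7 CPM (SD, n = 5), and Itgb2l, a beta 2-like integrin subunit, 224 ± 55.9 against 12.8 ± 4.51. Hp, haptoglobin, and Ceacam10 were not counted, with log2 ratios of -0.03 ± 0.41 and 0.92 ± 0.74. With the genes of the rule left out of the totals, Ceacam10 was counted as higher and Hp was still not counted. Thus 4 granule-related genes separated the filtered populations while haptoglobin did not. Against the comparator of the rule, Hp and Ceacam10 were counted as higher in members as well.

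Among primary-granule and promyelocyte genes, Fcnb, ficolin B, stood at 269 ± 150 CPM in members and 7.09 ± 7.15 in other neutrophils, and Serpinb1a, an inhibitor of neutrophil serine proteases, at 498 ± 149 and 15.0 ± 8.93 (SD, n = 5). Ctsc, the protease that activates elastase, was lower in members at 23.4 ± 9.35 against 87.1 ± 48.4. Ctsg, cathepsin G, stayed at 4.61 ± 4.23 CPM in members, while barcodes with 5 or more Elane, Prtn3 and Mpo UMIs, few C1q UMIs and at most 5% collagen (a progenitor gate of 520 barcodes, of which 4 libraries held at least 10) carried it at 2044 ± 769 (SD, n = 4). Fcnb and Serpinb1a were also high in the progenitor gate, at 573 ± 287 and 655 ± 212. That gate set no upper limit on Ltf, Camp and Ngp and was mixed. Of its barcodes 60.8% had under 1% of their UMIs from these genes, while the upper quartile stood at 5.69%, and Camp averaged 16334 CPM. Which of its barcodes carried Fcnb and Serpinb1a was not tested. The limit on Elane, Prtn3 and Mpo separates the gate from members, so the contrast in Ctsg is a description only.

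The 3 remaining markers of the list did not behave alike. Ly6g, the surface antigen that marks mouse neutrophils, was higher in members, with 554, 772, 254, 514 and 446 CPM in control 1 to 3 and knockout 2 and 3 against 253, 196, 216, 246 and 123 in other neutrophils (log2 ratio 1.23 ± 0.69, SD, n = 5). Retnlg, a resistin-like protein of maturing neutrophils, was at 23021, 8413, 3850, 8764 and 13543 in members and at 13047, 9247, 9214, 17743 and 15791 in other neutrophils. Members were higher in Retnlg in 1 of 5 libraries, with a log2 ratio of -0.36 ± 0.82, so the marker named both filtered populations. In the comparator of the rule Retnlg averaged 1651 CPM (n = 6), and against it members were higher, as given below. Mmp8, neutrophil collagenase, a protein of secondary granules that was listed here with the gelatinase-granule genes, was higher in members in 4 of 5 libraries at a log2 ratio of 0.48 ± 0.55, which is within the spread between libraries, and Mmp9 (gelatinase B) at -0.05 ± 0.70.

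Of the gelatinase-granule genes, Mmp25, a membrane-bound metalloproteinase, was higher in members at 152 ± 77.2 against 39.4 ± 7.19 CPM (log2 ratio 1.72 ± 0.69, SD, n = 5). Among calprotectin and annexin genes outside the rule, Anxa1, the anti-inflammatory annexin, was at 2349 ± 646 against 528 ± 76.5 CPM and Anxa3 at 195 ± 31.1 against 47.5 ± 27.8, both higher, S100a4 was lower and 4 of the 7 were neither. In the stefin and protease inhibitor list Wfdc21 was higher (1.51 ± 0.21 on the log2 scale), and Slpi, Cstb, Wfdc17 and Stfa2l1 were lower, with Wfdc17 at -4.28 ± 0.73 the lowest of all genes at the level. With the genes of the rule left out of the totals, S100a4 and Slpi were no longer counted as lower. Families of near-identical stefin genes may share reads, so their separate values are uncertain.

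The NADPH oxidase builds superoxide in the phagosome, and its membrane subunit gp91phox (Cybb) is made early. Cybb stood at 1275, 1647 and 1399 CPM in control members and 1402 and 849 in knockout members. In other neutrophils it stood at 480, 192, 268, 253 and 71.3. Members were above other neutrophils in every library (log2 ratio 2.55 ± 0.79, SD, n = 5), while Ncf1, Ncf4, Cyba and Rac2 were not counted in either direction, with Ncf1, a cytosolic subunit, at 0.48 ± 0.18.

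Some G2 and M phase and chromatin genes were higher in members. Mki67, the proliferation antigen Ki-67, stood at 324, 252 and 383 CPM in control members and 154 and 71.5 in knockout members, against 0, 36.7, 51.3, 21.1 and 36.5 in other neutrophils (log2 ratio 2.99 ± 1.88, SD, n = 5). The mean leans on the 0 of the first control library, without which it was 2.22, and in knockout 3 the ratio was 0.88. Of 16 G2 and M phase genes 6 reached the level, and Ube2c, Mki67, Top2a and Birc5 were higher, with Cks2 at -0.10 ± 0.19 among those that were not. Only 2 of 16 S phase genes reached the level, and neither was counted. With the genes of the rule left out of the totals, 9 G2 and M phase genes reached the level and 8 were higher. Of the S phase genes 3 reached it then, and Rrm2 was counted as higher. With each barcode thinned to 500 UMIs, 7.20% of members (95% exact interval 5.95 to 8.63%), 1.15% of other neutrophils (0.785 to 1.61%) and 19.0% of the progenitor gate (15.8 to 22.7%) held at least 3 UMIs of the G2 and M list. Before thinning the shares were 36.2%, 12.9% and 93.3%, at median depths of 5324, 1788 and 12366 UMIs. These intervals cover counting error only, and the members' share ran from 2.65% in the third knockout to 21.7% in the third control library among those with over 100 members. Between genotypes the thinned share was 11.7 ± 8.67% in 3 control and 3.86 ± 1.71% in 2 knockout libraries, a comparison chosen after the values were seen (exact permutation p = 0.2, the smallest that 3 against 2 can give). The difference of -7.84 points became -2.84 without control 3 and -6.63 without knockout 3.

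In a list of nuclear lamina and chromatin genes that also held microtubule genes, the chromatin genes Hmgn2, H2afz and H2afx and Stmn1, the microtubule regulator stathmin, were higher in members, with Hmgn2, a nucleosome-binding protein, at 946 ± 393 against 180 ± 64.3 CPM (SD, n = 5). Lmnb1, lamin B1 of the nuclear lamina, was lower at 276 ± 212 against 656 ± 391 (against the comparator of the rule its log2 ratio was 0.77), and it was no longer counted as lower, nor was any other gene of that list, when genes of the rule were left out of the totals. In the same list 6 genes were neither.

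Among the transcription factors, Cebpe, which drives secondary-granule genes, stood at 190, 219 and 405 CPM in control members and 433 and 142 in knockout members, against 17.4, 7.34, 15.6, 35.4 and 13.9 in other neutrophils. No value of the other neutrophils reached the lowest of the members, and the log2 ratio was 3.60 ± 0.62 (SD, n = 5). Of the 9 early factors only Cebpe and Runx1 reached the level, Runx1 at a log2 ratio of -0.46 ± 0.57, and Gfi1, a repressor needed for granulocyte maturation, stood below it at 6.90 ± 3.60 CPM in members. Of 11 late factors, 9 were lower, none was higher and 2 were neither, with Cebpb, the C/EBP of stress granulopoiesis and activated cells, at 613 ± 318 against 2615 ± 1272 and Junb, a component of AP-1, at 548 ± 246 against 2061 ± 643. With the genes of the rule left out of the totals 5 of the 11 were counted as lower, and against the comparator of the rule the log2 ratio of Cebpb was 0.15.

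**Figure D3:**
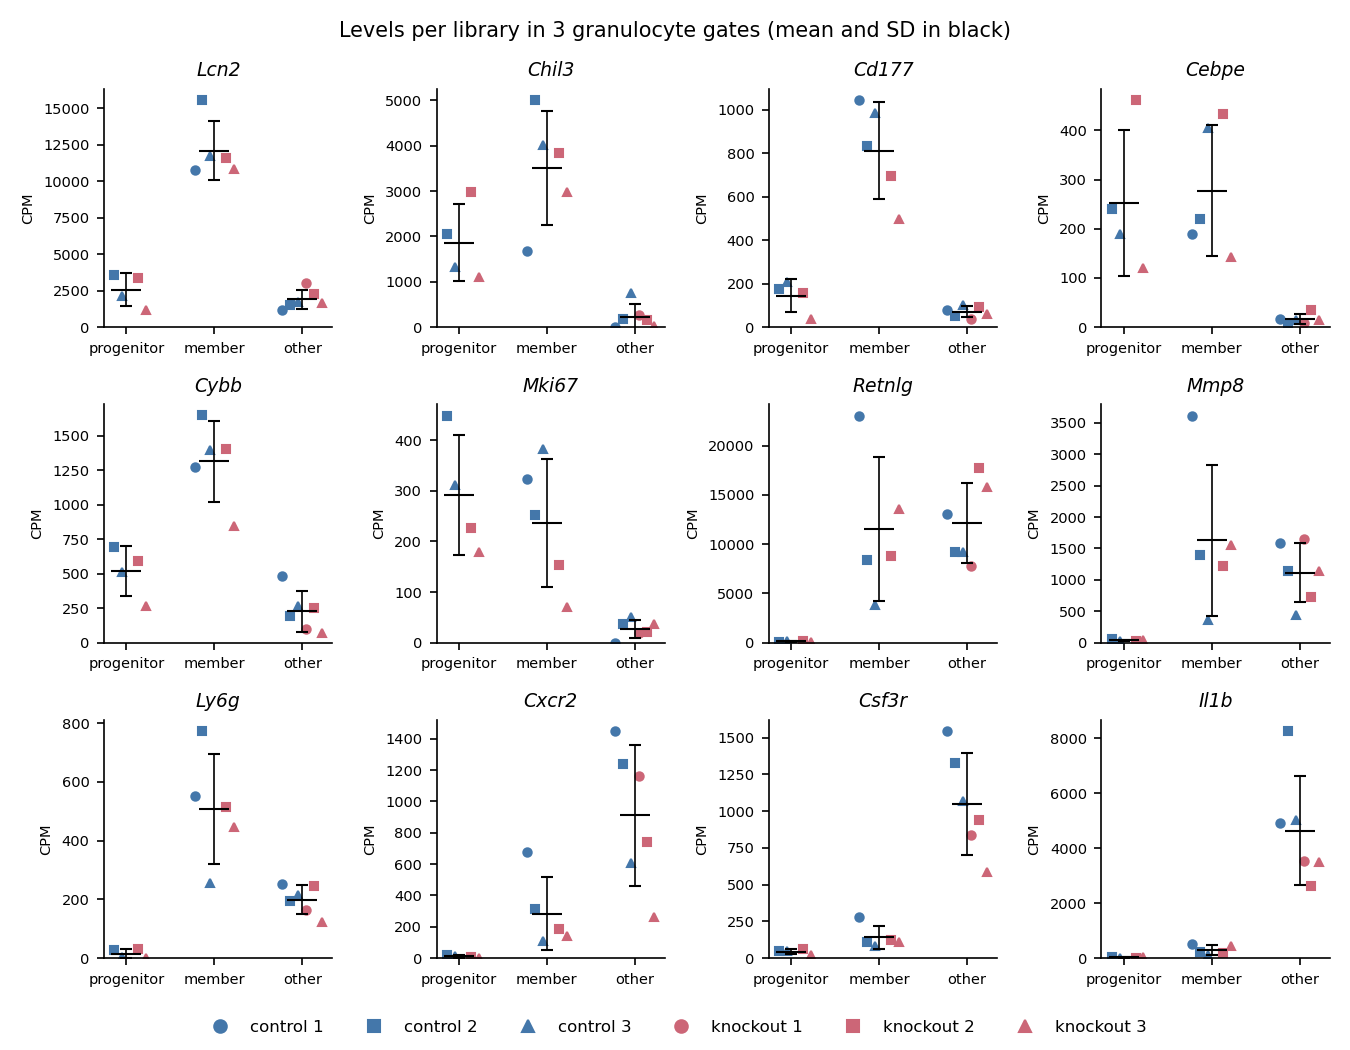
CPM of 12 genes in the progenitor gate, members and other neutrophils, 1 point per library with at least 10 barcodes, with the mean and SD in black. Lcn2, Chil3, Cd177 and Cybb peak in members. Cebpe and Mki67 are also found in the progenitor gate, which holds some barcodes rich in Ltf, Camp and Ngp. Retnlg and Mmp8 are shared with other neutrophils, and Csf3r and Il1b are highest in other neutrophils.

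Most inflammatory genes were lower in members than in other neutrophils. Of 20 genes 18 reached the level, 16 were lower, none was higher, and the median log2 ratio was -2.47. Il1b, interleukin-1 beta, was at 498, 239 and 118 CPM in control members and 174 and 460 in knockout members. In other neutrophils Il1b was at 4901, 8253, 5019, 2622 and 3511, above every member value (log2 ratio -4.10 ± 1.07, SD, n = 5). Cxcl2, a neutrophil-attracting chemokine, was at 462 ± 296 against 5717 ± 2452, Ccl3 at 36.4 ± 26.0 against 385 ± 148, and Nlrp3, the inflammasome sensor, at 37.3 ± 19.5 against 367 ± 110. Tnf and Sod2 were not counted. Before the added filter the list summed to 1106 and 2390 CPM in members of knockout 2 and 3. In the comparator of the rule it summed to 1030 and 1249 there, while in every other library members were the lower. Of 14 interferon response genes 7 reached the level and 4 were lower, namely Isg15, Oasl2, Slfn1 and Rsad2.

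Several receptors that guide and activate mature neutrophils were lower in members. Of 19 genes 18 reached the level, 10 were lower, 1 was higher and 7 were neither, with a median log2 ratio of -1.34. Csf3r, the receptor for G-CSF, was at 280, 109, 82.8, 125 and 111 CPM in members of control 1 to 3 and knockout 2 and 3, and at 1544, 1330, 1067, 940 and 584 in other neutrophils. Cxcr2, the chemokine receptor that draws neutrophils out of the marrow, was at -1.66 ± 0.64, and Cxcr4, the marrow-retention receptor, at -1.91 ± 0.54 on the log2 scale (SD, n = 5), though against the comparator of the rule they were at 1.17 and 0.41. The higher gene was Ltb4r1, the leukotriene B4 receptor, at 222 ± 32.1 against 82.1 ± 26.0, and Itgam, CD11b, was at 0.58 ± 0.31. Against the comparator of the rule the receptor list turned. It summed to 2786 ± 1161 CPM in members before the added filter (SD, n = 5) and 1528 ± 1131 in that comparator (n = 6), higher in members in every library. Of 15 glycolysis genes 12 reached the level, and only the glucose transporter Slc2a1 was counted, as lower. With the genes of the rule left out of the totals, 14 glycolysis genes reached the level. Gpi1, Ldha and Hk1 were then higher and none was lower, and 8 receptor genes were counted as lower.

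By ratio, the 10 genes highest in members were Chil3, Serpinb1a, Fcnb, Itgb2l, Cebpe, Mgst2, Cd177, Zmpste24, Mki67 and Lta4h, with mean log2 ratios from 5.26 down to 2.91. Mgst2 and Lta4h encode enzymes of leukotriene synthesis, and Lta4h stood at 210 ± 64.0 against 22.8 ± 3.87 CPM. Zmpste24 encodes the protease that processes prelamin A. The 10 lowest were Wfdc17, Il1b, Cxcl2, Clec7a, Ifitm1, Sirpb1c, Ccl4, Ccl3, Acod1 and Steap4, from -4.28 to -3.31. Clec7a encodes Dectin-1, the receptor for fungal glucans, and stood at 56.6 ± 25.7 against 859 ± 471, and Acod1, which makes itaconate, at 57.6 ± 49.0 against 572 ± 380.

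The members were not uniform, and the share of UMIs from Ltf, Camp and Ngp ordered them. This order comes from the rule's own genes and is given without a test, over the 4 libraries that held at least 10 members in every range. Of the 1513, 211 had a share under 1%, 429 from 1 to 5%, 512 from 5 to 10% and 361 at 10% or more. Along these ranges Chil3 went from 134 to 1026, 4429 and 7325 CPM (means over libraries), Cebpe from 17.5 to 139, 312 and 511, and Mki67 from 26.4 to 71.5, 230 and 340. Retnlg ran the other way, from 24154 to 14868, 6312 and 1023, as did Mmp8, from 2114 to 1984, 1127 and 207, and Cxcr2, from 445 to 311, 156 and 53.1. The range at 10% or more thus had high Cebpe and little Mmp8, and the range under 1% had little Cebpe and much Retnlg. Median depth went over the same ranges from 3581 to 7815 UMIs.

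**Figure D4:**
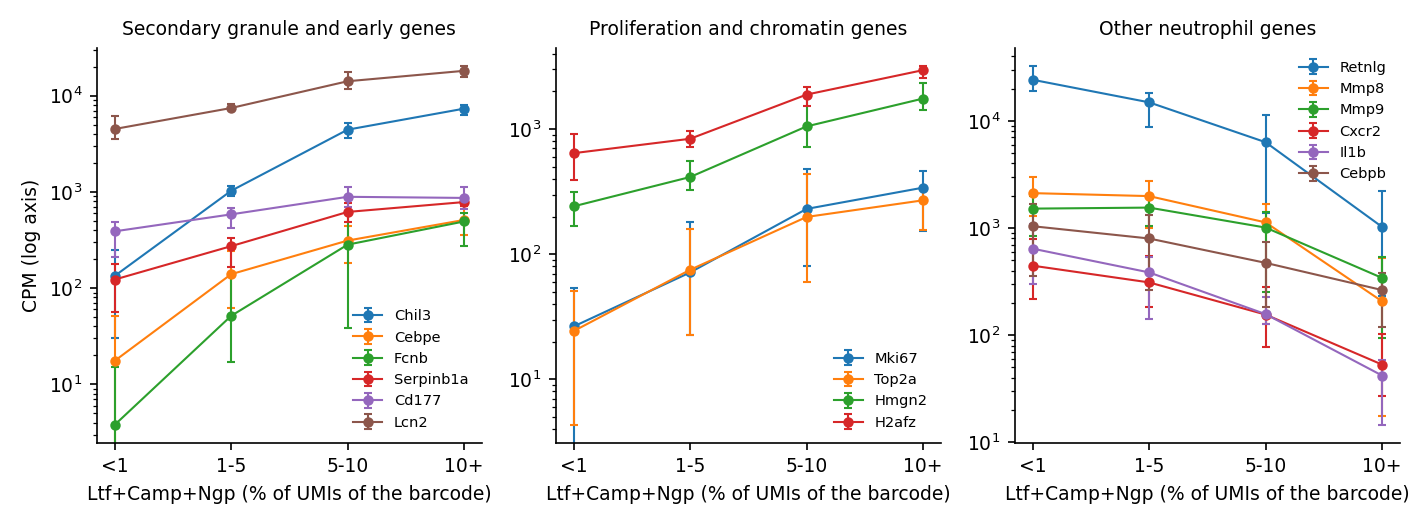
CPM (log axis) of 16 genes in members grouped by the share of their UMIs from Ltf, Camp and Ngp. Points are means over 4 libraries and bars run from the lowest to the highest library. Chil3, Cebpe, Fcnb and Mki67 are higher to the right, and Retnlg, Mmp8, Cxcr2 and Il1b lower.

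The 211 barcodes under 1% were mixed when set beside other neutrophils (means over 4 and 5 libraries). Cebpe stood at 17.5 against 17.9 CPM and Chil3 at 134 against 227, so these early genes gave no sign of the label immature there. Cd177 stood at 389 against 76.6, Serpinb1a at 123 against 15.0 and Anxa1 at 1145 against 528, on the side of the members. Il1b stood at 641 against 4861, Cxcl2 at 602 against 5717, Wfdc17 at 423 against 4143 and Csf3r at 232 against 1093, likewise on the side of the members. The 72 barcodes just inside the limit, with 10 to 14 UMIs of Ltf, Camp and Ngp, held Retnlg at 28206, Mmp8 at 2564, Chil3 at 108 and Cebpe at 6.52 CPM. The 174 just outside, with 5 to 9 UMIs, held 26291, 1984, 227 and 30.7, at a median depth of 3155.5 UMIs against 3155 inside. The limit thus falls within a stretch of Retnlg-rich barcodes and not in a gap. In the first control library the median member had 0.703% of its UMIs from the 3 genes, against 4.33% to 7.84% in the other 4 libraries compared, and it had the highest Retnlg and Mmp8 of these.

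Transcripts of other cell types were present at low to moderate levels. The 7 stromal markers together stood at 26420, 4409 and 16833 CPM in control members and 2977, 19597 and 20904 in knockout members before the added filter, and averaged 5832 ± 2984 (SD, n = 5) after it, against 7749 ± 2784 (n = 6) in other neutrophils, with Col1a1 the most abundant before the filter and Sparc after it. All 7 were above 10 CPM. Macrophage markers summed to 147 ± 71.3 in members and 412 ± 78.0 in other neutrophils, led by Cd68, with C1qa, C1qb and C1qc held low by the rule. Monocyte and dendritic markers summed to 1873 ± 400 and 2255 ± 806, and within that list Ly6c2 was higher (731 ± 216 against 272 ± 105) and F13a1 lower in members. T and NK markers summed to 28.0 ± 32.3, erythroid markers to 62.2 ± 80.4, B lineage markers to 85.6 ± 26.5 (2 of 6 genes above 10, Ebf1 the most abundant), endothelial markers to 233 ± 102 and basophil, mast cell and eosinophil markers to 1.89 ± 1.21, with Fcer1a at 0. Chondrocyte markers, led by Col2a1, summed to 2210 ± 2504 in members (5715 in knockout 3, and 10935 there before the filter) and 3974 ± 3543 in other neutrophils. Osteoclast markers, led by Mmp9, which neutrophils also express, summed to 1438 ± 557 and 1458 ± 527. The part of these cells in the ratios was not tested.

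The share of immature cells was compared between genotypes to ask whether the chondrocyte deletion of Piezo1 went with a shift in this population. Of all barcodes past the filters, members made up 0.373%, 6.18% and 2.51% in the controls and 0.207%, 3.85% and 5.54% in the knockouts. The groups overlapped, with means of 3.02 ± 2.94 and 3.20 ± 2.73% (SD, n = 3 each, exact permutation p = 1, two-sided). Of barcodes in the common S100a8 and S100a9 gate, members made up 33.3%, 17.0% and 22.2% in the controls and 1.87%, 14.3% and 16.4% in the knockouts. These did not overlap, with a difference of -13.3 percentage points and an exact permutation p = 0.1, which is the smallest that 3 against 3 can give and cannot pass 0.05. Without knockout 3 the differences were -0.993 and -16.1 points.

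This second share changed direction with the barcodes that the gate held. After the added filter it was 36.8%, 28.5% and 28.5% in the controls and 3.05%, 36.4% and 61.2% in the knockouts, a difference of 2.25 points with overlapping groups (exact permutation p = 1). That direction rested on knockout 3, without which the filtered difference was -11.6 points, and without knockout 1 it was 17.5. Thinned to 500 UMIs with limits set as shares, the difference was 1.63 points (exact permutation p = 0.9), and it was -8.42 without knockout 3, -1.20 without knockout 2, -0.134 without control 1, 14.5 without knockout 1, 1.71 without control 2 and 3.32 without control 3. Within the 4 libraries of Cell Ranger 6.1.2 it was -4.25 points before the filter (exact permutation p = 0.333, the smallest that 2 against 2 can give), and the 2 libraries of version 6.1.1, 1 per genotype, had 33.3% and 1.87%. Fewer cells of a type captured and fewer present in the callus cannot be told apart from such shares.

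**Figure D5:**
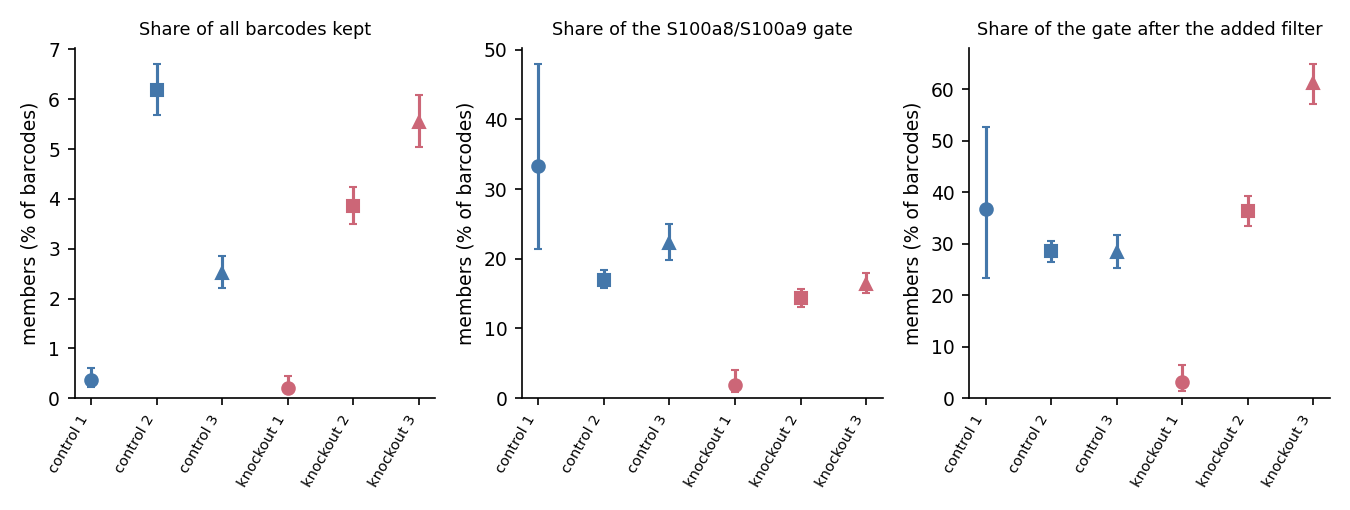
Members as a percentage of all barcodes past the filters (left), of the S100a8 and S100a9 gate (middle) and of that gate after the added filter (right), 1 point per library with its 95% Wilson interval, which covers counting error only. The genotypes overlap at left and right, and in the middle all 3 controls lie above all 3 knockouts.

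Expression within the members was compared between 3 control and 2 knockout libraries by edgeR's quasi-likelihood test on UMIs summed per library, with Benjamini-Hochberg adjustment over all genes tested. Of 11192 genes tested in members without the added filter, 1 (0.00893%) passed an adjusted p of 0.05, and 588 had an unadjusted p under 0.05. DESeq2 called 16. The gene was Ifitm5, a membrane protein of bone-forming osteoblasts, on chromosome 7 at chr7:140948958-140950291. Ifitm5 stood at 0, 1.69 and 3.42 CPM in control members and 103 and 59.3 in knockout members (log2 fold change 5.33 ± 0.54, SE, edgeR adjusted p = 0.039, higher in 2 of 2 libraries), with 10.9 in the first knockout library that was not tested.

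The call on Ifitm5 was lost when barcodes with over 5% collagen UMIs were left out (log2 fold change 3.71, edgeR adjusted p = 0.787) and with the added filter (3.74, adjusted p = 0.755), where knockout members held 42.2 and 8.28 CPM. In the barcodes of the rule's comparator, of which 27.1% had over 5% collagen UMIs, Ifitm5 stood at 344, 12.96 and 13.7 CPM in the controls and 9.22, 584 and 119 in the knockouts. The log2 fold change of Ifitm5 was 5.71 without knockout 3 and 4.79 without knockout 2. Those fits left a single knockout library, so no call is read from them. Ifitm5 did not pass without control 1 (edgeR adjusted p = 0.431), control 2 (0.255) or control 3 (0.148). Of 4 osteoclast markers tested, Ctsk, Acp5 and Atp6v0d2 were higher in knockout members at an unadjusted p under 0.05 (list median 2.12 on the log2 scale, smallest edgeR adjusted p = 0.219). Of 7 stromal markers tested, Sparc and Postn had an unadjusted p under 0.05, 1 higher and 1 lower (list median 0.26, smallest edgeR adjusted p = 0.879). After the added filter Sparc and Col1a2 were higher at that p (list median 1.24, smallest edgeR adjusted p = 0.838). The part of these osteoclast and stromal transcripts in the Ifitm5 difference was not tested.

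None of the neutrophil lists gave a gene past the adjusted threshold in either direction in edgeR. Of 9 secondary-granule genes outside the rule 0 passed and 0 had an unadjusted p under 0.05, with a median log2 fold change of -0.20 beside 0.01 over all genes. Lcn2 was at -0.13 ± 0.48 and Chil3 at -0.0042 ± 0.57 (SE). With each library left out in turn Lcn2 ran from -0.28 without control 1 to 0.15 without control 2, and Chil3 from -0.37 without control 1 to 0.46 without control 2. For Retnlg the log2 fold change was 0.09 ± 0.67, for Mmp8 -0.23 ± 0.75 and for Ly6g -0.11 ± 0.54, with edgeR adjusted p = 0.996, 0.974 and 0.987. These values also changed sign with single libraries. Retnlg ran from -0.34 without control 3 to 0.81 without control 1, Mmp8 from -0.73 without control 3 to 0.58 without control 1, and Ly6g from -0.49 without control 3 to 0.42 without control 2. Of the 16 G2 and M genes 0 passed, with a median of -0.61, and Mki67 was at -1.26 ± 0.45 (unadjusted p = 0.0206 and adjusted p = 0.879 by edgeR), with -2.01 without knockout 2 and -0.76 without knockout 3. The 20 inflammatory genes had a median of -0.06 and 0 passed, with Tnfaip3, an inhibitor of NF-kB signalling, at -1.79 ± 0.40 (unadjusted p = 0.00135 and adjusted p = 0.458 by edgeR). Of 9 stefin and protease inhibitor genes 0 passed, with a median of 0.70, and at an unadjusted p under 0.05 BC100530 and Cstb were on the higher and Wfdc17 on the lower side in knockout members (log2 fold changes 1.90, 0.83 and -1.21, smallest edgeR adjusted p = 0.879). Of 19 receptor genes 0 passed, with a median of -0.27 and Cxcr4 at -0.87 (unadjusted p = 0.0416 by edgeR).

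Piezo1 itself was scarce in members, at 27.1, 16.6, 29.4, 14.4 and 19.4 CPM in control 1 to 3 and knockout 2 and 3, with a log2 fold change of -0.31 ± 0.38 (edgeR adjusted p = 0.905). A 3′ tag count in cells that were not the target of Cre does not check the deletion. Apoe, the apolipoprotein E gene that the study followed, and Lars2, a mitochondrial leucyl-tRNA synthetase, had log2 fold changes of 1.53 ± 0.47 and -1.66 ± 0.43 with edgeR adjusted p = 0.879 and 0.723, and Apoe was at 0.61 without knockout 2 and 2.09 without knockout 3. Of 6 macrophage markers tested, Ms4a7, Csf1r and Cd68 were higher in knockout members at an unadjusted p under 0.05, and 0 passed (list median 0.86 on the log2 scale, smallest edgeR adjusted p = 0.663). The part of macrophage transcripts in the Apoe value was not tested.

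In the comparator of the rule, edgeR called 0 of 15632 genes between genotypes (484 with an unadjusted p under 0.05, and DESeq2 called 1), and 0 without knockout 3 (202 at an unadjusted p under 0.05). The genotype difference itself was compared between members and that comparator in 1 edgeR model with the library as a block, and 0 of 13367 genes passed, with 774 at an unadjusted p under 0.05. Between the filtered populations 17 of 9763 passed, 11 with a higher and 6 with a lower knockout effect in members. Between the unfiltered ones the count ran from 0 to 334 when each control library was left out, with 334 without control 2. Leaving out knockout 2 or knockout 3 left members with a single knockout library, so no count is given for those. The 17 rest on populations filtered after their values were seen.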

How the data were processed

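Single-cell RNA-seq (10x Chromium 3′, version 3 chemistry) was performed on 3 control and 3 knockout callus libraries. Per the file headers, the authors made the deposited UMI counts with Cell Ranger 6.1.1 (replicate 1 of each group) or 6.1.2 (replicates 2 and 3). The submitters' processing notes name GRCm38 and Seurat. The libraries held 69361237, 77384286 and 80735192 UMIs (controls) and 57626530, 103784364 and 102513582 UMIs (knockouts). The UMIs summed over members, given above, were far fewer.

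The members and the gene lists were chosen with earlier results of these data known. Counts were summed per library and population over 52081 shared gene IDs and given as CPM, each gene's share of the summed UMIs times 1000000. Libraries with fewer than 10 members were left out. Knockout and control were compared with edgeR 4.0.16 in R 4.3.3 (filterByExpr, TMM, quasi-likelihood), with DESeq2 1.42.0 as an alternative. Shares were compared by exact permutation over all assignments in scipy 1.17.1, 20 of them with 6 libraries and fewer with fewer libraries. The edgeR test in members was checked on simulated counts. It called 3.1% of genes with a true log2 change of 1 in size, 27.4% of those at 2 and 82.5% of those at 3. Small changes would thus mostly be missed. Doublets were kept, and Scrublet in scanpy 1.11.5 (0.8% expected per 1000 barcodes) removed them as an alternative. Named genes were the 6 markers, the listed genes, the 10 highest and 10 lowest ratios with 1 sign in every library, up to 5 genes called per direction between genotypes, and Piezo1, Apoe, Lars2, Xist and Y-linked genes; some listed genes are not reported here. GENCODE M21 (GRCm38) gave the gene positions. Replicate numbers were not treated as pairs. Other settings were lower limits on genes, other gates, normalizations, pseudocounts and each library left out. The filter on S100a8 and S100a9 share and collagen, totals without the genes of the rule and the split by Cell Ranger version were added after the data were seen.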

Additional observations from a re-analysis of the deposited data

How the results depend on the processing

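The 34 named ratios of members to other neutrophils were recomputed under 10 alternatives, and of 340 values 29 moved by more than 1 SD. Of the ratios counted as higher or lower 4 changed sign, all against the comparator of the rule: Cebpb (0.15), Cxcr2 (1.17), Cxcr4 (0.41) and Lmnb1 (0.77). Retnlg, counted as neither, was at 2.77 there and at 0.04 without the genes of the rule in the totals. The cause was not tested. Counts of higher and lower genes between the filtered populations became 253 and 714 at 10 CPM or more and 214 and 273 without the genes of the rule in the totals, and ran from 81 to 106 and from 390 to 507 when a library was left out. Against the comparator of the rule they became 415 and 1863 at 10 CPM or more, 442 and 299 without the genes of the rule, 80 and 318 with S100a8 plus S100a9 at 50 UMIs or more, and 86 and 438 with the added filter, and ran from 198 to 266 and from 647 to 773 when a library was left out.

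The knockout minus control share of the gate reversed to 2.25 points with the added filter and to 1.63 when thinned, and ran from -16.9 to -8.75 points when a library was left out. The share of all barcodes differed by 0.177 points and ran from -1.15 to 1.76 when a library was left out.

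The single call between genotypes in members became 0 with Ltf, Camp and Ngp at 20 UMIs or at 1% of UMIs, with S100a8 plus S100a9 at 50 UMIs, without collagen-rich barcodes and with the added filter, 165 without the filter on low counts, 16 in DESeq2 and 3 with the replicate block, and ran from 0 to 12 when a library was left out. The top of that range came from leaving out knockout 2, which left members with a single knockout library, so no call is read from it. Leaving out control 1, control 2 or control 3 gave 0 calls each time. In the barcodes with few secondary-granule UMIs, the 0 calls became 1 in DESeq2. The 0 genes that differed in the knockout effect became 75 (Ltf, Camp and Ngp at 20 UMIs), 4 (S100a8 plus S100a9 at 50), 13 (without collagen-rich barcodes), 31 (doublets removed), 17 (added filter) and 371 (no filter on low counts). They ran from 0 to 334 when a control library was left out. With doublets removed 1 gene was called and it was not Ifitm5 (adjusted p = 0.0969). Apoe passed (adjusted p = 0.041) only without the filter on low counts. The labels give same-numbered libraries no shared source, though both of number 1 used Cell Ranger 6.1.1 and both of number 3 list 55357 genes. The deviations of genes from their group mean in members correlated at 0.0224 between the libraries of number 2 and at -0.124 between those of number 3. Number 1 lacked a knockout library with enough members. Deviations of only 2 knockout libraries from their own mean are exact opposites, so these correlations cannot show whether libraries were paired. With the replicate number as a block the p of the gate share was 0.25 (exact sign flips) at the same difference of -13.3.

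Depth limits these results most in the first control library, with 15 members, and in the first knockout library, with 6. A missing call does not show equal expression. Comparisons of expression within members between genotypes rest on 2 knockout libraries, and the third knockout goes against the stated sex. No value shows whether the libraries come from separate litters or days.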
